A study of Mus musculus with 36 samples.

Results

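The S100 calcium-binding protein genes of mouse brain are described here by 9 genes, S100a1, S100a4, S100a6, S100a8, S100a9, S100a10, S100a13, S100a16 and S100b, each measured by 1 probe of a whole-genome expression array. They are 9 of the 30854 gene symbols and 45281 probes on the array, which carries 18 probes for 16 symbols that begin with S100. The genes were selected on their measured response to Cpd-60, with S100a6 and S100a1 singled out because this response in the hippocampus differed from that in the other regions. All Cpd-60 values of the 9 genes are therefore given as a description, with no test. The responses to SAHA and CI-994 and the differences between regions of vehicle-treated mice were tested. These tests share the vehicle arrays with the contrast used in the selection, so they are not independent of it.

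Gene expression was measured on 36 Illumina MouseWG-6 arrays in 3 regions of adult male C57BL/6J mice, the hippocampus (HIP), the medial part of the prefrontal cortex (PFC) and the nucleus accumbens (NAc). Mice received 10 daily i.p. injections of vehicle at 7.5 mL/kg (10% DMSO with equal parts, 45% each, of PEG-400 and saline), Cpd-60 at 45 mg/kg in 7.5 mL/kg, SAHA at 25 mg/kg in 5 mL/kg, or CI-994 at 10 mg/kg in 5 mL/kg. Tissue was taken 1 h after the last injection. Cpd-60 is a benzamide selective for the histone deacetylases HDAC1 and HDAC2, SAHA is a hydroxamate that inhibits class I and class II deacetylases, and CI-994 is a benzamide inhibitor of class I deacetylases. Each treatment had 6 mice whose RNA was combined 2 by 2 into 3 pools, and the same 3 pools supplied PFC, NAc and HIP, so that a region and treatment had n = 3 arrays. An array thus gives the average of 2 mice, and the spread between single mice is not seen. The vehicle matched Cpd-60 in volume but was given in a larger volume than SAHA and CI-994, and this difference cannot be told apart from those 2 drugs. Cpd-60 pool 2 has conflicting labels in all 3 regions, since most of them give its mice as 3 and 4 but the description as 1 and 2. Each region was hybridized on 2 BeadChips of its own, so that a difference between regions is also one between BeadChips.

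Raw intensity had a median of 82.2 to 108.3 on the arrays. Its 95th percentile ran from 349.9 to 1079.7, with Cpd-60 pool 1 of NAc the lowest and Cpd-60 pool 3 of NAc the highest. Between 31.9% and 43.3% of probes per array had a detection p of at most 0.01, which is called above background here. Within HIP the arrays of SAHA pools 2 and 3 were dim, since their 95th percentile was 437.7 and 452, whereas it ran from 593.6 to 850.1 on the HIP arrays of the other 3 treatments. Markers of striatum were highest in NAc for 7 of 7 genes, markers of cortex were highest in PFC for 3 of 4 (all but Rasgrf2), and markers of hippocampus were highest in HIP for 3 of 4 (all but Wfs1). Precision is limited by the 3 arrays of each group.

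S100 proteins are small EF-hand proteins that pair into dimers. Binding of calcium opens a surface on the dimer that docks onto target proteins, and several members are also released from cells and act on the receptors RAGE (Ager) and TLR4. In brain, S100b is best known from astrocytes. S100a10, also called p11, differs from the others in that its EF-hands do not bind calcium. It forms a complex with annexin A2 and is known for bringing serotonin receptors to the cell surface. S100a8 and S100a9 together form calprotectin, which neutrophils and monocytes store in bulk.

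Of the 9 genes, 8 lie in a cluster on chromosome 3, in the order S100a1, S100a13, S100a16, S100a4, S100a6, S100a8, S100a9 and S100a10, and S100b lies on chromosome 10. S100a1 and S100a13 are transcribed away from each other, and their annotated starts are separated by 104 bases. The promoter table (RefSeq, GRCm38.p6) held 8 of the 9 genes, all but S100a10. Sequence is shown for some of the neighbours on chromosome 3. These are the interval between the starts of S100a1 and S100a13 (chr3:90514331-90514434, plus strand), and the 60 bases before the starts of S100a4 (chr3:90603710-90603769), S100a6 (chr3:90612834-90612893) and S100a8 (chr3:90669011-90669070), all on the plus strand, with the letters TATAAA in capitals.
S100a1 and S100a13: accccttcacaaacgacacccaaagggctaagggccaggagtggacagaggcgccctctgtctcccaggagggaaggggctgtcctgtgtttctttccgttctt
S100a4: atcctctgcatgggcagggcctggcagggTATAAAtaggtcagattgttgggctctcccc
S100a6: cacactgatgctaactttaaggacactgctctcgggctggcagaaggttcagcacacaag
S100a8: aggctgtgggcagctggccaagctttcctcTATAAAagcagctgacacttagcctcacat

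TATAAA begins 31 bases before the start of S100a4 and 30 bases before that of S100a8. On either strand it occurs within the 250 bases before the start of 12.4% of 32851 promoters, and within the last 60 bases of 3.92%. The other letters searched on both strands of the same 250 bases, with no overlap between these motifs, were GGGCGG (the GC box, found for S100a9 and S100a16 and in 32.7% of promoters), TGANTCA (AP-1, found for S100a16 and in 6.75%), CACGTG (E-box, found for none of the 8 and in 6.02%) and TGACGTCA (CRE, found for none and in 1.55%). A match is a match of letters only.

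The probes fell into those well above background and those at its edge. S100a1, S100a6, S100a13 and S100a16 were above background on 36 of 36 arrays. S100a10 was above background on 19 arrays, 11 of them in HIP, S100a8 on 14, S100b on 11, 8 of them in HIP, and S100a9 on 1. The S100a4 probe was above background on 0 of 36 arrays. Levels are given as log2 of the quantile-normalized intensity, and no probe's level is set against another's. Low probes carry background signal within their values, so that their differences are compressed on this scale. The plot of all 9 probes by array shows each value.

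**Figure D1:**
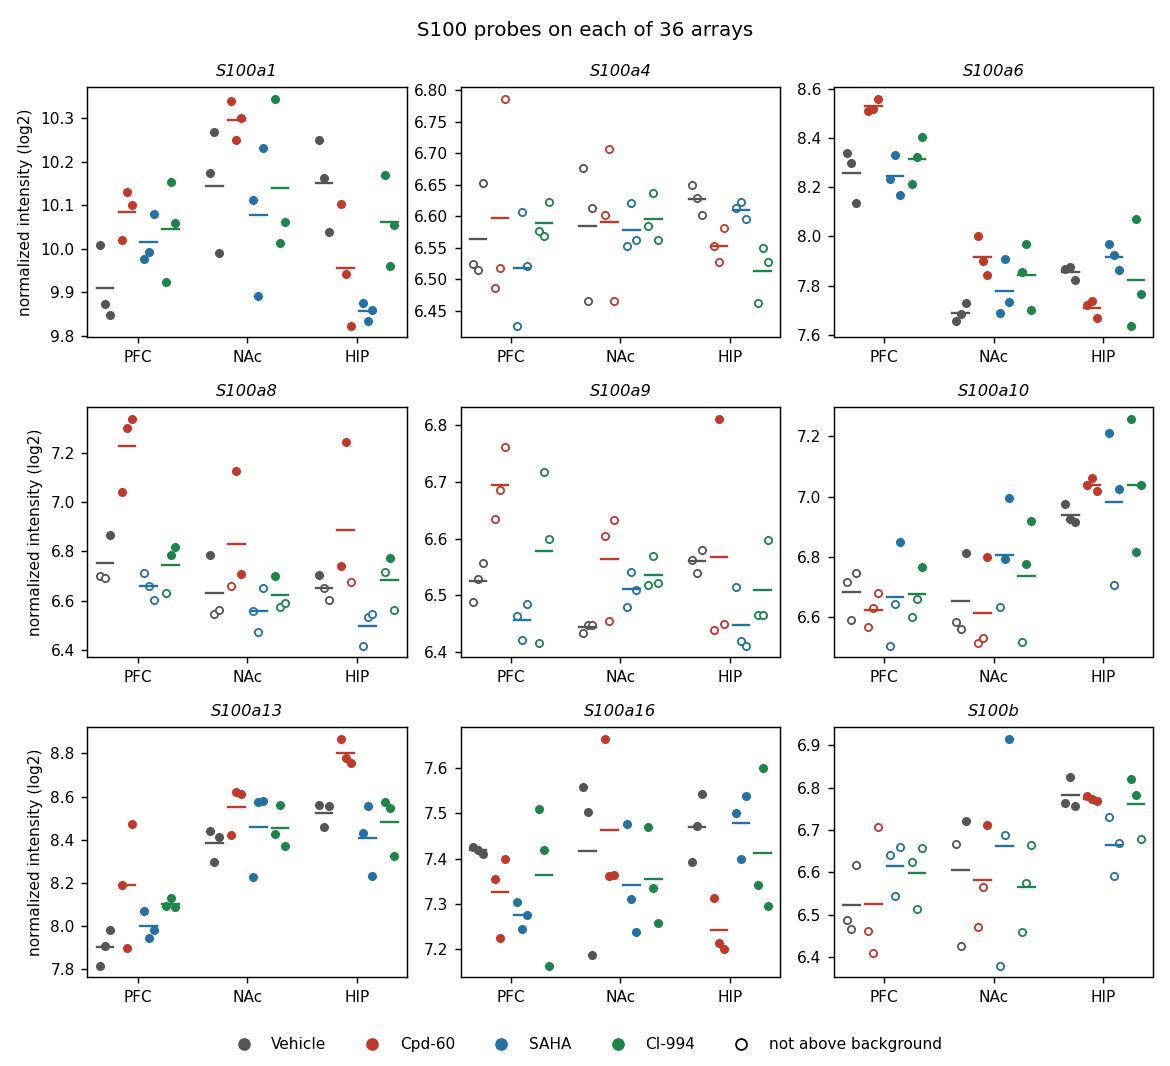
Normalized intensity (log2) of the 9 S100 probes on the 36 arrays, by region and treatment; a point is an array of RNA from 2 mice, a bar is the mean of 3 arrays, and an open point is not above background. S100a6 sat higher in PFC than in NAc or HIP under every treatment, S100a13 had its lowest group means in PFC, and S100a10 and S100b were above background mostly in HIP.

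S100a6, or calcyclin, which binds annexins and the CacyBP protein, was higher with Cpd-60 in PFC and NAc and lower in HIP. In PFC the 3 vehicle pools read 8.34, 8.30 and 8.13 and the 3 Cpd-60 pools 8.51, 8.52 and 8.56. In NAc the vehicle pools read 7.66, 7.69 and 7.73 and Cpd-60 pools 2 and 3 read 7.90 and 7.84, with pool 1, the dimmest array of all, higher still at 0.31 above the vehicle mean. Without pool 1 the NAc difference was 0.18. In HIP the vehicle pools read 7.87, 7.88 and 7.82 and the Cpd-60 pools 7.72, 7.74 and 7.67. The groups did not overlap in any region, with all Cpd-60 pools on the high side in PFC and NAc and all on the low side in HIP. The difference from vehicle was 0.27 (SE 0.074) in PFC, 0.22 (SE 0.083) in NAc and -0.15 (SE 0.090) in HIP on the log2 scale, the first 2 of which are 1.21-fold and 1.17-fold. The difference in HIP minus the mean of those in PFC and NAc was -0.39 (SE 0.10). Within each BeadChip the sign was the same, at 0.19 and 0.42 in PFC, 0.28 and 0.11 in NAc, and -0.14 and -0.15 in HIP. The SD of the 3 pools was 0.036 under Cpd-60 and 0.029 under vehicle in HIP. Without Cpd-60 pool 2, the one with conflicting labels, the differences were 0.28, 0.23 and -0.16. These are the values on which S100a6 was selected.

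S100a1, which in muscle binds the ryanodine receptor and the calcium pump of the sarcoplasmic reticulum, followed the same course with more overlap. In PFC the vehicle pools read 10.01, 9.87 and 9.85 and the Cpd-60 pools 10.02, 10.13 and 10.10. In NAc the vehicle pools read 10.17, 10.27 and 9.99 and the Cpd-60 pools 10.34, 10.25 and 10.30. In HIP the vehicle pools read 10.25, 10.16 and 10.04 and the Cpd-60 pools 10.10, 9.94 and 9.82. The groups did not overlap in PFC, where the lowest Cpd-60 pool lay just above the highest vehicle pool, and overlapped in NAc and HIP. The difference was 0.17 (SE 0.073) in PFC, 0.15 (SE 0.11) in NAc and -0.19 (SE 0.083) in HIP, and that in HIP minus the mean of the other regions was -0.36 (SE 0.11). Without Cpd-60 pool 2 the 3 differences were 0.15, 0.18 and -0.19. Without vehicle pool 3 the NAc difference was 0.075, and without Cpd-60 pool 3 the HIP difference was -0.13. The plot of single Cpd-60 pools shows that each of the 3 pools stood higher relative to vehicle in PFC and NAc than in HIP for both genes.

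**Figure D2:**
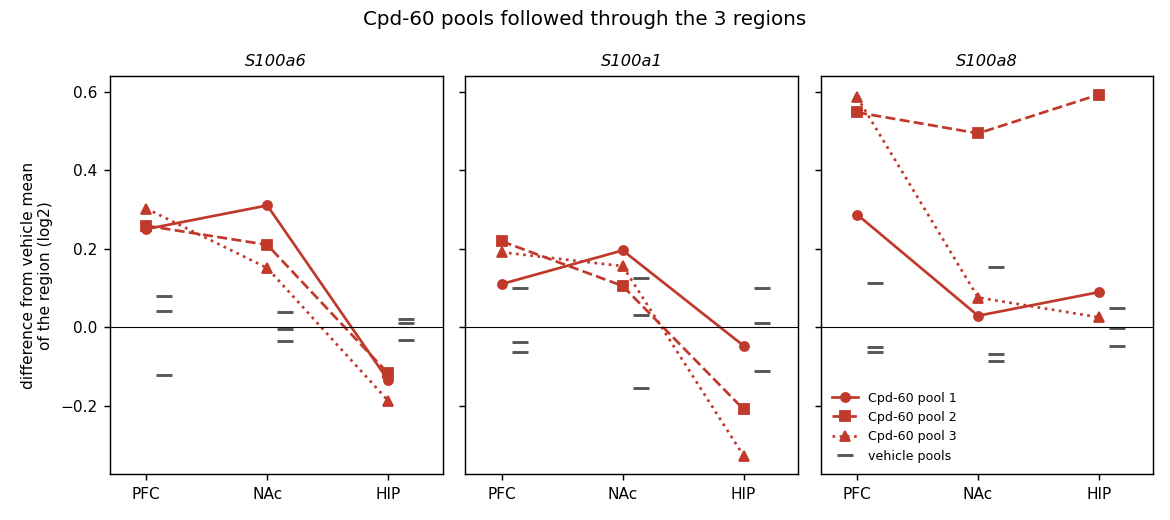
Difference of each Cpd-60 pool from the vehicle mean of the same region (log2) for S100a6, S100a1 and S100a8; each line joins the same pool of 2 mice in PFC, NAc and HIP, and grey dashes are the 3 vehicle pools. For S100a6 all 3 lines pass from above the vehicle pools in PFC and NAc to below them in HIP, and for S100a8 pool 2 lies far above vehicle in all 3 regions.

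S100a8 had the largest Cpd-60 difference of the 9 genes, in PFC, and its pools did not move together elsewhere. In PFC the vehicle pools read 6.70, 6.69 and 6.87 and the Cpd-60 pools 7.04, 7.30 and 7.34, with all 3 Cpd-60 arrays but only 1 of the vehicle arrays above background. The difference was 0.47 (SE 0.088), a value that reached 1.20 under neqc, a normalization that subtracts background. In NAc the vehicle pools read 6.79, 6.55 and 6.56 and the Cpd-60 pools 6.66, 7.13 and 6.71. In HIP the vehicle pools read 6.70, 6.65 and 6.61 and the Cpd-60 pools 6.74, 7.25 and 6.68. Cpd-60 pool 2 was thus the highest of all pools in NAc and HIP, while the groups overlapped. Without it the difference dropped from 0.20 to 0.053 in NAc and from 0.24 to 0.057 in HIP. This is also the pool whose labels disagree on which mice it holds.

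S100a9, the partner of S100a8, read 6.49, 6.53 and 6.56 under vehicle and 6.64, 6.69 and 6.76 under Cpd-60 in PFC, with none of these 6 arrays above background. In HIP its single reading above background, at 6.81, was again Cpd-60 pool 2, against 6.44 and 6.45 in Cpd-60 pools 1 and 3. Genes that mark neutrophils were at or near background in these samples. Of 7 on the array, Mpo, Cd177 and Retnlg were above background on no array, and none was above it on all arrays. Their summed normalized intensity in PFC ranged from 664.8 to 693.7 under Cpd-60 and from 665.3 to 682.8 under vehicle, and in HIP from 645.5 to 662.0 and from 632.2 to 668.0. In bulk tissue, a change in the number of cells of a type and a change in RNA per cell cannot be told apart.

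S100a13, which takes part in the unconventional release of FGF1 and IL1A, was higher with Cpd-60 in every region. In HIP the vehicle pools read 8.56, 8.46 and 8.56 and the Cpd-60 pools 8.87, 8.78 and 8.75, with no overlap and a difference of 0.27 (SE 0.089). In PFC the Cpd-60 pools spread from 7.90 to 8.47 and overlapped the vehicle pools (7.82 to 7.98), with a difference of 0.28 (SE 0.11) that was 0.14 without Cpd-60 pool 3 and 0.43 without Cpd-60 pool 2. In NAc the difference was 0.17 (SE 0.10), and the groups overlapped. In HIP the Cpd-60 point estimate was thus 0.27 for S100a13 and -0.19 for S100a1, whose groups overlapped. The starts of these genes flank the 104 bases printed above, and a part of this interval in the values was not tested.

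S100a16, a widely expressed member, was lower with Cpd-60 in HIP, where the vehicle pools read 7.39, 7.47 and 7.54 and the Cpd-60 pools 7.31, 7.21 and 7.20. The groups did not overlap, and the difference was -0.23 (SE 0.082), or -0.42 under neqc. In PFC the difference was -0.091 (SE 0.083) and in NAc 0.047 (SE 0.12), the latter turning to -0.068 without vehicle pool 3.

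S100a10 was close to background outside HIP. In HIP the vehicle pools read 6.98, 6.93 and 6.92 and the Cpd-60 pools 7.04, 7.06 and 7.02, which did not overlap but differed by only 0.10 (SE 0.12), a SE set by the wider spread of the SAHA and CI-994 pools (SD 0.25 and 0.22). S100b, a classical marker of astrocytes, read 6.76, 6.83 and 6.76 under vehicle and 6.78, 6.77 and 6.77 under Cpd-60 in HIP, a difference of -0.0085 (SE 0.059). S100a4, which binds non-muscle myosin, was tested in HIP alone because the vehicle arrays there passed the filter on low values, and its difference of -0.074 (SE 0.051) is one between readings that were all at background.

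A probe entered the fits where its detection p was at most 0.2 on all 3 arrays of at least 1 treatment in the region, which 7 members passed in PFC, 6 in NAc and 8 in HIP. Several low members passed through the arrays of 1 treatment alone, namely S100a9 in PFC through Cpd-60, S100a10 in PFC through CI-994 and in NAc through SAHA, and S100a4 in HIP through vehicle, so that nothing is read from their differences there. In PFC all Cpd-60 pools lay beyond all vehicle pools for 5 of 7 members, S100a1, S100a6, S100a8 and S100a9 above and S100a16 below, where 9.68% of all 22156 probes tested did so. In NAc this held for 1 of 6, S100a6, against 9.38% of 23242 probes. In HIP it held for 5 of 8, S100a10 and S100a13 above and S100a4, S100a6 and S100a16 below, against 12.2% of 23275 probes. Nothing is read from these shares, since the members were selected on this contrast. The median Cpd-60 difference of the tested members was 0.17 in PFC, 0.16 in NAc and -0.041 in HIP, and that of all probes tested lay between -0.0040 and -0.0018.

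Markers of other cells also moved with Cpd-60 and are given beside these values. Of the 8 astrocyte markers (Gfap, Aqp4 and others, all above background on every array), 6 were higher in PFC, 7 in NAc and 8 in HIP. Their summed intensity in HIP ranged from 19087 to 19997 under Cpd-60 and from 16449 to 18115 under vehicle, without overlap. Those of PFC (15345 to 16676 and 14667 to 15364) and NAc (13854 to 16409 and 13663 to 14129) overlapped. Of the 3 red blood cell genes all 3 were lower with Cpd-60 in each region, with sums in NAc of 5154 to 8153 against 8100 to 11516 under vehicle. All 3 were also lower in each region with SAHA and CI-994, which share these vehicle arrays. Their median difference in NAc was -0.42 and -0.65, beside -0.56 with Cpd-60. With Cpd-60, of 3 ependymal markers 2 were higher in each of PFC and NAc and all 3 were lower in HIP. Their sums in HIP were 457.9 to 517.8 under Cpd-60 and 527.5 to 562.8 under vehicle, without overlap. The sums overlapped in PFC (379.9 to 390.7 and 363.3 to 396.6) and in NAc (475.6 to 641.7 and 481.2 to 505.1). Their median difference was 0.0024 in PFC and 0.14 in NAc. Their difference in HIP minus the mean of those in PFC and NAc had a median of -0.26, beside -0.39 for S100a6. All 3 were also lower in HIP with SAHA (median -0.16) and CI-994 (median -0.14), beside a median of -0.077 with Cpd-60. S100a6 in HIP differed by 0.062 with SAHA and -0.031 with CI-994. The choroid plexus sum in HIP varied widely, from 5417 to 8229 under Cpd-60 and from 2941 to 11011 under vehicle. The part of these cells in the S100 values was not tested.

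SAHA changed no member at an adjusted p below 0.05, as it changed 0% of all probes in PFC, NAc or HIP (limma, Benjamini-Hochberg adjustment). At an unadjusted p below 0.05, 0 of 7 members passed in PFC against 2.25% of probes, 0 of 6 in NAc against 2.05%, and 1 of 8, S100a1, in HIP against 9.37%. In HIP S100a1 read 9.87, 9.83 and 9.86 under SAHA against 10.25, 10.16 and 10.04 under vehicle. All SAHA pools lay below all vehicle pools, and the 3 SAHA readings were close to each other. The difference was -0.29 (SE 0.083, 95% interval -0.47 to -0.11, adjusted p = 0.50). With the BeadChip as a block it was -0.25, and within the BeadChips -0.33 and -0.19. It ranged from -0.35 to -0.24 with single pools left out, each time below an unadjusted p of 0.05. Pools 2 and 3 of this group are the dim arrays, and without both the difference was -0.28. That value rests on 1 SAHA array, whose spread is assumed to be like that of the other groups, and it did not pass an unadjusted p of 0.05. SAHA differed from vehicle by 0.11 (interval -0.053 to 0.27) in PFC and -0.066 (interval -0.31 to 0.18) in NAc for S100a1. The SAHA difference of S100a1 in HIP minus the mean of the others was -0.31 (SE 0.11, interval -0.54 to -0.084, adjusted p = 0.66). It was the 1 member of 9 to pass an unadjusted p of 0.05 there, against 7.36% of 26594 probes, and 0% passed after adjustment. S100a1 was singled out on the same contrast with Cpd-60, which uses the same vehicle arrays. Its unadjusted passes with SAHA are thus not independent of that selection, and nothing is read from them.

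Beside S100a1, 2 further members lay wholly below vehicle with SAHA in HIP, so that 3 of 8 did, against 19.3% of probes. S100a8 read 6.42, 6.53 and 6.55 under SAHA and 6.70, 6.65 and 6.61 under vehicle (difference -0.15, interval -0.42 to 0.11, adjusted p = 0.67). Of these readings, 0 of 3 under SAHA and 1 of 3 under vehicle were above background. S100b read 6.73, 6.59 and 6.67 against 6.76, 6.83 and 6.76 (difference -0.12, interval -0.25 to 0.0096, adjusted p = 0.54), with 0 of 3 SAHA arrays and 3 of 3 vehicle arrays above background. Under neqc the S100b difference was -0.38 and passed an unadjusted p of 0.05. Its SAHA readings of 6.59 and 6.67 come from pools 2 and 3, the dim arrays. Without both the difference was -0.051, a value that rests on 1 SAHA array. No lower limit on the S100b fold with SAHA could be set, since the lowest signal above background, averaged over the 3 SAHA arrays (6.81), exceeded the vehicle mean of S100b (6.78). Of the oligodendrocyte markers 7 of 7 were also lower with SAHA in HIP, and Mbp, Mobp and Mog passed an unadjusted p of 0.05 but no adjusted one. Their summed intensity was 22180 to 24568 under SAHA and 25698 to 28660 under vehicle. With CI-994 in HIP 7 of 7 were lower too (median -0.21, beside -0.23 with SAHA), where S100b differed by -0.022. The part of these markers in the S100b values was not tested. With SAHA S100a6 differed by 0.062 (interval -0.13 to 0.26) in HIP, -0.013 (interval -0.17 to 0.15) in PFC and 0.086 (interval -0.097 to 0.27) in NAc. The SAHA pools of 2 of 7 members, S100a9 and S100a16, lay below all vehicle pools in PFC against 8.68% of probes, and those of 0 of 6 members lay beyond vehicle in NAc against 7.11%.

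CI-994 likewise changed no member at an adjusted p below 0.05, with 0% of all probes called in each region. At an unadjusted p below 0.05, 0 of 7 members passed in PFC against 3.98% of probes, 0 of 6 in NAc against 1.99%, and 1 of 8 in HIP against 3.24%. The 1 was S100a4, at 6.46, 6.55 and 6.53 under CI-994 and 6.65, 6.63 and 6.60 under vehicle (difference -0.11, SE 0.051, adjusted p = 1.00). These readings were all at background and the probe was admitted by its vehicle arrays, the high group, so that nothing is read from this difference. Groups did not overlap for 1 member in PFC, S100a13 (10.7% of probes), for 0 in NAc (7.61%) and for 1 in HIP, S100a4 (9.58%). S100a13 in PFC read 8.09, 8.13 and 8.09 under CI-994 and 7.82, 7.91 and 7.98 under vehicle, a difference of 0.20 (interval -0.041 to 0.44, adjusted p = 1.00).

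For S100a6 the CI-994 difference was 0.057 (interval -0.10 to 0.22) in PFC, 0.15 (interval -0.032 to 0.34) in NAc and -0.031 (interval -0.23 to 0.16) in HIP, where its pools ranged from 7.64 to 8.07 around the vehicle readings. For S100a1 it was 0.13 (interval -0.025 to 0.29), -0.0041 (interval -0.25 to 0.24) and -0.089 (interval -0.27 to 0.091). Neither differed between HIP and the other regions at an unadjusted p below 0.05 (-0.14, interval -0.34 to 0.072 for S100a6 and -0.15, interval -0.38 to 0.076 for S100a1), nor did any other member, where 2.3% of probes did so and 0% after adjustment. Since the 3 drugs share the vehicle arrays and differ in dose and volume, their values stand side by side without a test between drugs. S100a6 in HIP had point estimates of -0.15 with Cpd-60, 0.062 with SAHA and -0.031 with CI-994, and S100a1 in HIP of -0.19, -0.29 and -0.089.

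**Figure D3:**
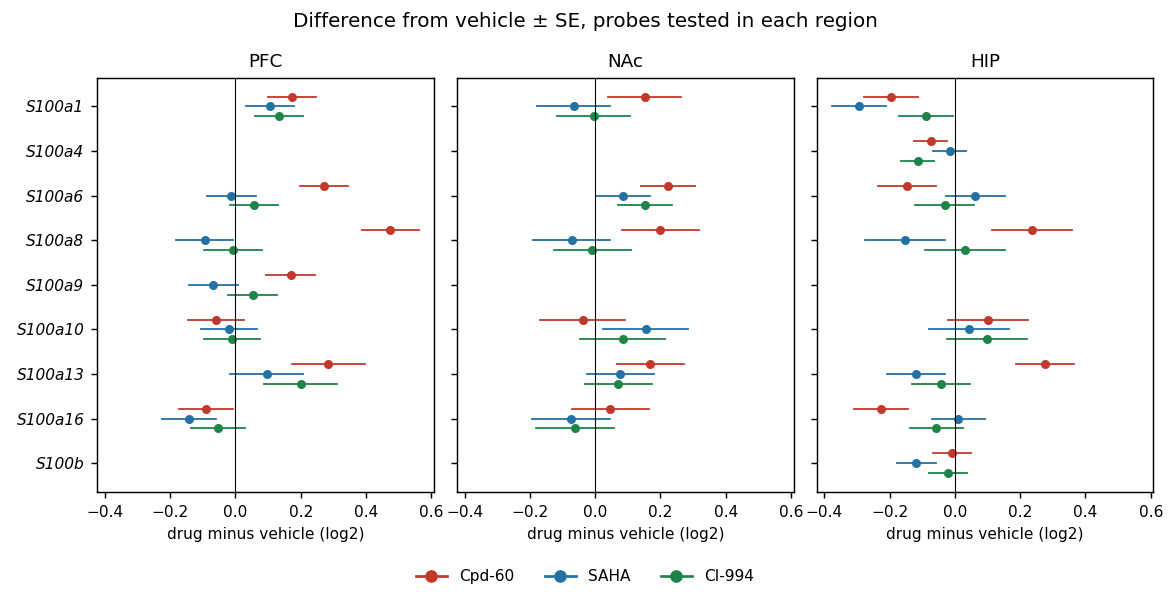
Difference of each drug from vehicle (log2, point) with its SE (line) for the members tested in PFC, NAc and HIP, each from 3 pools against 3 in a fit of the 12 arrays of a region. The S100a6 point of Cpd-60 lies right of 0 in PFC and NAc and left of 0 in HIP, and the S100a1 points of all 3 drugs lie left of 0 in HIP.

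Among regions of vehicle-treated mice, S100a6 and S100a13 changed in opposite directions. S100a6 was lower than in PFC, with a log2 difference of -0.57 in NAc (SE 0.083, adjusted p = 9.5e-06) and -0.40 in HIP (SE 0.083, adjusted p = 0.00099), and no NAc or HIP pool reached the lowest PFC pool at 8.13. S100a13 was higher than in PFC by 0.48 in NAc (SE 0.11, adjusted p = 0.0019) and by 0.62 in HIP (SE 0.11, adjusted p = 1.2e-04), or 1.39-fold and 1.54-fold, with NAc pools at 8.44, 8.30 and 8.41 against PFC pools of 7.82, 7.91 and 7.98. These were the 2 members of 9 called in each comparison, against 20% of 26594 probes between HIP and PFC and 14.9% between NAc and PFC (limma with the pool as a random block). Both comparisons share the PFC arrays. No member was called between HIP and NAc, where 13.1% of probes were. The calls held with the BeadChip as a random block, at adjusted p of 0.0017 or below for S100a6 and 0.0059 or below for S100a13. Each region had BeadChips of its own, so this block cannot tell a difference between regions from one between BeadChips. Without vehicle pool 1 the S100a13 difference of NAc from PFC was 0.41 with an adjusted p of 0.064.

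**Figure D4:**
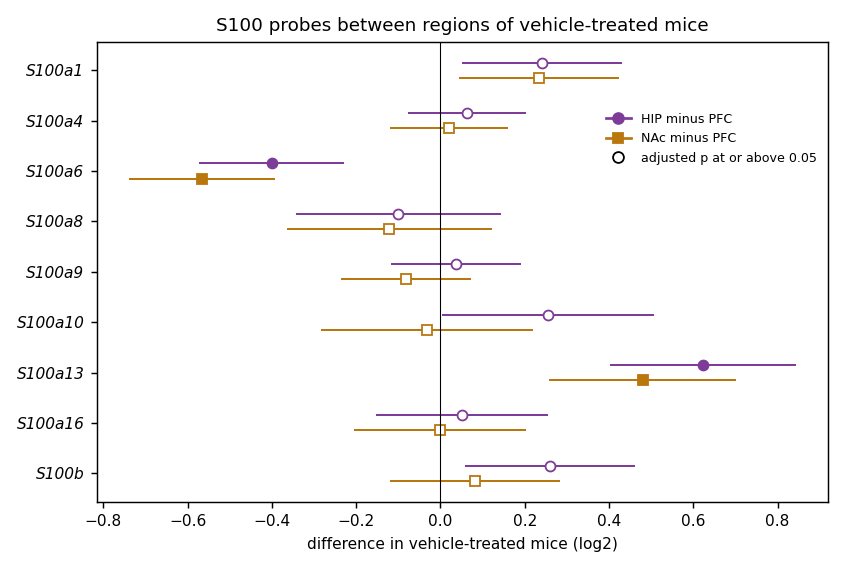
Difference of HIP (circles) and NAc (squares) from PFC in vehicle-treated mice (log2) for the 9 members, with 95% intervals, 3 pools a region; filled marks passed an adjusted p of 0.05. S100a6 lies left of 0 at -0.57 and -0.40, S100a13 right of 0 at 0.48 and 0.62, and the other 7 members have open marks.

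The other members did not pass adjustment between regions. S100a1 in PFC was 0.24 below HIP (adjusted p = 0.064) and 0.23 below NAc (adjusted p = 0.089). S100b read 6.49, 6.47 and 6.62 in PFC, with none of the 3 arrays above background, and 6.76, 6.83 and 6.76 in HIP (difference 0.26, interval 0.059 to 0.46, adjusted p = 0.060), which bounds the HIP mean as at least 1.03-fold higher. It was called under neqc, where the difference was 0.72, and with the stricter filter on low values. S100a10 read 6.72, 6.59 and 6.75 in PFC, with none above background, and 6.98, 6.93 and 6.92 in HIP (difference 0.25, interval 0.0060 to 0.50, adjusted p = 0.15), with a mean at least 1.14-fold higher. In such bounds the dim group stands at the lowest signal above background on each of its arrays or at its own reading, whichever is higher. These bounds compare the means of 3 arrays and take no account of the spread between pools. S100a4, S100a8, S100a9 and S100a16 differed by at most 0.12 between any 2 regions.

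Cell markers differed strongly between the same vehicle arrays. All 7 oligodendrocyte markers were called higher in HIP and in NAc than in PFC, with sums of 25698 to 28660 in HIP, 15912 to 20639 in NAc and 9088 to 11115 in PFC. Choroid plexus markers were called higher in HIP than in PFC for 5 of 5 genes, with sums of 2941 to 11011 and 556.5 to 1024. Astrocyte markers were called lower in NAc than in PFC for 4 of 8, and meningeal and fibroblast markers for 3 of 5 (Dcn, Lum and Slc6a13). Of all probes, 20% were called between HIP and PFC and 14.9% between NAc and PFC. The part of these cell markers in the S100 levels was not tested.

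Among the 7 other S100 genes of the list with a probe, S100a11 was the 1 above background on all 36 arrays. Like S100a6 it was lower than in PFC, with a difference of -0.46 in NAc (adjusted p = 0.00038) and -0.27 in HIP (adjusted p = 0.029). It was 1 of the 5 tested, where 14.9% and 20% of all probes were called, so nothing is read from this count. No other of the 5 was called. SAHA and CI-994 changed none of them at an adjusted p below 0.05, and S100a11 passed an unadjusted one under CI-994 in PFC, with a difference of 0.25. With Cpd-60 S100a11 differed by 0.26 in NAc, 0.012 in PFC and 0.018 in HIP.

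The partners and receptors of S100 proteins formed a list of 20 genes, all on the array, with 14 tested in PFC, 17 in NAc and 15 in HIP. With Cpd-60 7 were higher and 7 lower in PFC, 11 higher and 6 lower in NAc, and 9 higher and 6 lower in HIP, with medians of -0.0012, 0.024 and 0.071. None passed an adjusted p of 0.05 with SAHA or CI-994 in any region, and 3 passed an unadjusted one, each lower, namely Il1a with CI-994 in PFC, and Anxa11 with SAHA and Ryr2 with CI-994 in HIP. Anxa2, the annexin that S100a10 binds, differed with Cpd-60 by 0.11 in PFC, -0.079 in NAc and -0.077 in HIP, and Fgf1, which S100a13 helps to release, by 0.14, 0.27 and 0.26. Between regions of vehicle-treated mice 1 of 17 was called higher and 3 lower in HIP than in PFC, and 2 higher and 3 lower in NAc than in PFC, beside the 20% and 14.9% of all probes given above. Ryr2, the ryanodine receptor of heart and brain that S100a1 binds, was higher in HIP than in PFC by 1.53 (adjusted p = 0.00016). Htr1b, a serotonin receptor carried by S100a10, was higher in NAc than in PFC by 0.50 (adjusted p = 0.00018). Ager and Tlr4 were above background on 3 and 1 of 36 arrays.

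The probes most like S100a6, S100a1 and S100b were sought by Pearson's r over the 36 arrays after the mean of each region was subtracted, among the 19447 probes detected in all 3 regions. For S100a6 these were Igfbp3 (r = 0.58), Olfr1347 (0.54), LOC385452 (0.54), Col7a1 (0.52) and Foxk1 (0.51). For S100a1 they were Arhgdig (r = 0.68), B230317C12Rik (0.65), 2810004N20Rik (0.64), Abhd4 (0.64) and Map2k2 (0.64). For S100b they were Mobp (r = 0.82), Ndrg1 (0.80), Epm2aip1 (0.77), LOC100047998 (0.77) and 1500010G04Rik (0.76). The S100b probe was above background on 11 of the 36 arrays, so most of its readings behind these r values were not. Mobp encodes a myelin protein. The arrays share pools and BeadChips, and the r values are descriptions.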

How the data were processed

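RNA pooled from 2 mice each was hybridized to 36 Illumina arrays. The authors deposited a table of raw probe intensity, neither background-corrected nor normalized, beside a detection p-value for every probe and array. The methods name quantile normalization in GeneSpring and keep transcripts present in 3 of 3 replicates.

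Intensities of all 36 arrays were quantile normalized together, floored at 1 and taken to log2 (R 4.3.3, limma 3.58.1). Baseline transformation to the median was left out, since it changes no difference. Probes with a detection p of at most 0.2 on all arrays of at least 1 group were tested. Each region had its own linear model in limma over the 4 treatments, moderated by empirical Bayes and without covariates. Differences between regions were fitted on all 36 arrays with the pool as a random block (correlation -0.013). Adjustment was by Benjamini-Hochberg over all tested probes of a comparison, at 0.05. Each member had 1 probe. The genes named were the 9 members, genes of the lists, and the 5 most alike genes of S100a6, S100a1 and S100b. Further lists (microglia, endothelial) are counted in the closing section. The fits were tested on simulated data. The members and lists were chosen with earlier results of these data known. Alternatives were no filter or a stricter one (detection p up to 0.01), neqc with an offset of 16, the BeadChip or pool number as a block, the 27 arrays without CI-994, the methods' one-way analysis with Tukey's test, each pool left out in turn, and, chosen after seeing the data, the dim SAHA arrays left out. The array table names no genome build.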

Additional observations from a re-analysis of the deposited data

Results flagged for a closer look

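The response of S100a6 to Cpd-60 differed in direction between regions. All 3 Cpd-60 pools lay above all 3 vehicle pools in PFC (difference 0.27 on the log2 scale) and in NAc (0.22), and all 3 lay below them in HIP (-0.15). The difference between regions was not tested, since S100a6 was selected for it. No other member separated from vehicle in opposite directions in 2 regions. Nothing is read from this, since S100a6 was selected for it and the share of all probes that did so was not counted.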

How the results depend on the processing

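Of 1409 values of single members under the alternatives, 1318 kept their direction and their side of the threshold or moved by less than the spread between pools, 60 moved further, 16 lost an unadjusted p of 0.05 or an adjusted call, 15 gained one, and 0 values called in the report turned sign. Under neqc the Cpd-60 difference of S100a6 in HIP minus the mean of PFC and NAc was -0.57 in place of -0.39, and with single pools left out it ranged from -0.41 to -0.38. That of S100a1 was -0.39 under neqc and ranged from -0.44 to -0.29 with single pools left out. The number of members called between NAc and PFC of vehicle-treated mice ranged from 1 to 2 with single pools left out, the lower without vehicle pool 1. No member was called with SAHA or CI-994 under any of the 98 alternative counts, and at most 2 of all probes were. Signals near background limit S100a4, S100a8, S100a9, S100a10 and S100b.

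Same-numbered drug and vehicle pools correlated between -0.44 and 0.72 in 27 pairs, 15 of them above 0.1, and 10 matched their own number best. Same-numbered Cpd-60 and vehicle pools also shared a BeadChip, and all 3 of their pairs exceeded 0.1 in PFC (0.17 to 0.58) and NAc (0.33 to 0.72) but not in HIP (0.053 to 0.47). Their differences have no test, and the block leaves them as they are. With the pool number as a block the S100a1 difference of SAHA in HIP stayed at -0.29 and below an unadjusted p of 0.05, and 0 members were called.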

Other observations

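With Cpd-60, 1 of 6 microglial markers was higher and 5 were lower in HIP (median -0.091), and 2 of 5 endothelial markers were higher and 3 lower (median -0.13). The summed microglial intensity in HIP ranged from 1484 to 1616 under Cpd-60 and from 1604 to 1689 under vehicle. The Cpd-60 contrast selected the S100 genes, and no test was run on it.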
